A study of Mus musculus with 8 samples.

Results

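The genes described here encode the core of the inflammasome pathway of the mouse: the sensors Nlrp3, Nlrp1b, Nlrc4, Aim2, Naip2 and Naip5, the adaptor Pycard, the caspases Casp1 and Casp4, and the pore-forming protein Gsdmd. They were selected by symbol and make up 10 of the 55226 genes in the deposited expression table. RNA with poly(A) tails was sequenced from bone marrow-derived macrophages (BMDMs), primary macrophages that were grown from C57BL/6 marrow for 7 days in medium holding 10% serum and M-CSF, a macrophage growth factor, at 10 ng/ml. The cells were wildtype (PtipWT, called WT) or carried a conditional knockout (PtipcKO, called cKO) of PTIP, a nuclear protein linked to histone methylation and encoded by Paxip1, and they received the bacterial cell wall component LPS at 100 ng/ml for 6 h or were taken at 0 h. The 4 groups were therefore WT at 0 h, WT after LPS, cKO at 0 h and cKO after LPS, with 2 samples in each. The submitters describe them as biological replicates, and no source used here says whether samples came from separate mice, so a p-value here reflects only how far these samples spread, which may be technical. Not given in the sources used here are the Cre line, the deleted exons and the age of the mice.

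An inflammasome is assembled when a sensor meets its trigger in the cytosol. NLRP3 responds to many kinds of cell stress, AIM2 to DNA, NLRP1B to bacterial proteases, and NLRC4 to bacterial flagellin or secretion system proteins that NAIP5 and NAIP2 have bound. The adaptor ASC, encoded by Pycard, links sensors to caspase-1, which cuts pro-IL-1β, pro-IL-18 and gasdermin D, while caspase-11, encoded by Casp4 in the mouse, binds LPS in the cytosol and also cuts gasdermin D. The freed end of gasdermin D opens pores in the plasma membrane and the cell can die by pyroptosis. In macrophages, LPS outside the cell is a classical priming signal that acts through TLR4.

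Expression was given as rlog, a log2 scale on which genes with few reads are pulled toward their mean, and a difference of 1 in rlog is a difference of 1 log2 unit. All 10 genes were tested, as 11543 genes reached the minimum of 3 set for the mean rlog of the 8 samples. Paxip1 had an rlog of 3.82 to 4.50 in the 4 WT samples and 2.48 to 2.63 in the 4 cKO samples, in the direction of the labels. Samples of one group correlated across the tested genes with r of 0.987 to 0.992, and the depth of each sample is unknown. The mean rlog of 7 macrophage markers was 12.68 to 12.70 before and 13.22 to 13.40 after LPS in the WT samples, and 12.21 to 12.41 before and 12.70 to 12.75 after it in the cKO samples. Of these 7 markers, 2 rose and 0 fell with LPS in each genotype. After LPS, 2 of the 7 were lower in cKO than in WT. Of 31 markers of 7 other cell types, 8 were high enough to be tested. Among these, 3 of 3 tested dendritic cell markers rose with LPS in both genotypes. Both tested neutrophil markers rose in WT and 1 of them in cKO. Of the 2 tested mast cell and basophil markers, 1 rose in WT and 0 in cKO. The 1 tested B cell marker fell in both genotypes. Over all tested genes, 22.5% rose and 19.7% fell with LPS in WT, and 19.6% rose and 17.5% fell in cKO. After LPS, 284 of the 11543 tested genes were lower in cKO than in WT. The mean rlog over the list of 8 neutrophil markers was 1.43 to 1.79 before and 1.76 to 2.46 after LPS in the WT samples, and 1.61 to 1.75 before and 1.87 to 2.30 after it in the cKO samples. The part of these markers in the results below was not tested, and in bulk RNA fewer cells of a type and less RNA per cell cannot be told apart.

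The genes lie on 7 chromosomes of the GRCm38 build, in the positions of the GENCODE M21 annotation, and each is annotated as protein-coding. Casp1 (chr9:5298517-5307265) and Casp4 (chr9:5308828-5336783) are neighbours on the plus strand with 1562 bases between them. Naip2 (chr13:100144063-100202092) and Naip5 (chr13:100211739-100246323) are neighbours on the minus strand with 9646 bases between them. Nlrp3 (chr11:59541568-59566956, plus strand) and Nlrp1b (chr11:71153102-71230733, minus strand) share a chromosome. The others are Aim2 (chr1:173350879-173466040, plus strand), Pycard (chr7:127989708-127993867, minus strand), Gsdmd (chr15:75862327-75867408, plus strand) and Nlrc4 (chr17:74425438-74459142, minus strand). Among the 50-base windows of the transcript used for each gene, 36.8% in Naip5 and 19.4% in Naip2 also occur in other genes, mostly other Naip copies. This share was 2.18% in Nlrp1b, 1.13% in Nlrc4, 0.789% in Aim2 and 0 in the other 5 genes. How reads matching several genes were counted is not given in the sources used here, so the values of Naip5 and Naip2 are uncertain. Pycard overlaps the antisense gene Gm45205 over 485 exonic bases, 12.8% of its own, and the strand setting is likewise not given.

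The promoter sequences are shown because most of these genes changed with LPS, and they show which short motifs of LPS-responsive or myeloid factors lie near the starts. RefSeq promoters of GRCm38.p6, running from 250 bases before to 50 after a start, were matched for 9 of the 10 genes and 12 starts. The motifs were searched on both strands. A kappaB consensus, the binding motif of NF-kappaB, was found in 4 of the 12 windows, which belong to Casp4 (2 overlapping windows), Naip5 and 1 of 2 starts of Nlrp3, and 4.51% of all 32851 RefSeq promoter windows of this length hold it. The ETS core GAGGAA, the letters that myeloid factors such as PU.1 bind, was found in 5 of the 12 windows, and 28.3% of all windows hold it. The interferon-stimulated response element was found in none of the 12 windows (3.44% of all windows), as were the gamma activated site TTCNNNGAA (8.3%) and the AP-1 motif TGANTCA (7.81%). Printed 5′ to 3′ on the gene's strand, with matches to the kappaB consensus or the ETS core in capitals, are the windows of Casp4 (chr9:5308599-5308898, plus strand), Nlrp3 at the start with the kappaB match (chr11:59541319-59541618, plus strand), Naip5 (chr13:100247287-100247586, minus strand), Casp1 (chr9:5298267-5298566, plus strand) and Aim2 (chr1:173420354-173420653, plus strand).
Casp4: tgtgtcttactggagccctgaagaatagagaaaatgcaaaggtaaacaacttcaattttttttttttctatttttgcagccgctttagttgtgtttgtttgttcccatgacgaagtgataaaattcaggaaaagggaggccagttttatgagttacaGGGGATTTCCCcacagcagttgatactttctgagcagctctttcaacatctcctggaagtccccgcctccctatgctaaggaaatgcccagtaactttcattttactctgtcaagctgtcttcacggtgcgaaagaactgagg
Nlrp3: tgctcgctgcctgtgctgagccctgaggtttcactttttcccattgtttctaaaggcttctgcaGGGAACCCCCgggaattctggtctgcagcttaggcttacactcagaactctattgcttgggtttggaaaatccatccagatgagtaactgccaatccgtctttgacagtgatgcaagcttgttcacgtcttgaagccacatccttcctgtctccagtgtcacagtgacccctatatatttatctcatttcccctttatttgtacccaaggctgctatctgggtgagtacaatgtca
Naip5: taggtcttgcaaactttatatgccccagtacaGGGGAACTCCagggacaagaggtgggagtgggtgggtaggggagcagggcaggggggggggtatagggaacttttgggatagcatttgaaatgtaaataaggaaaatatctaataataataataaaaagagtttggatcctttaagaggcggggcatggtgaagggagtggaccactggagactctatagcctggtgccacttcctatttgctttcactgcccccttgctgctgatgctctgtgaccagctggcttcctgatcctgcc
Casp1: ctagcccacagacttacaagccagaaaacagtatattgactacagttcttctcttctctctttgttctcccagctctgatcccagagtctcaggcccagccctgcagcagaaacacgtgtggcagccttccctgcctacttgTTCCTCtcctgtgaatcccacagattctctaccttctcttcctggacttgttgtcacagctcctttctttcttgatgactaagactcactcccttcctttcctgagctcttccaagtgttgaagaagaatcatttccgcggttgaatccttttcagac
Aim2: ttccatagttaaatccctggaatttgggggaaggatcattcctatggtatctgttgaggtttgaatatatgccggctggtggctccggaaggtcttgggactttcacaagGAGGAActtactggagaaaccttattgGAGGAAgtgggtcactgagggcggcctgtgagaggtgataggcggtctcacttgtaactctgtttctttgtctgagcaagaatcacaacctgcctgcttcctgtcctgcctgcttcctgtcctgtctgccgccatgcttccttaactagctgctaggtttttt
In the Casp4 window the first kappaB match began 93 bases before the start, in the Nlrp3 window 186 bases before it on the minus strand, and in the Naip5 window 218 bases before it. The Casp1 window held 1 ETS core and the Aim2 window held 2. A match describes letters only, and no binding was measured.

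After 6 h of LPS, most of these genes were more highly expressed in WT macrophages. Casp4, Aim2, Nlrp3, Casp1 and Gsdmd rose by 1.51 to 2.53 log2 units, Naip5 and Naip2 rose by 0.78 and 0.65, and Nlrp1b fell by 1.18. In all, 7 of the 10 genes rose and 1 fell at an adjusted p below 0.05 in limma, a linear model fitted to all tested genes with Benjamini-Hochberg adjustment. Among all tested genes 42.2% were called in this comparison, with 22.5% higher and 19.7% lower. The median difference of the 10 genes was 1.15, against -0.01 over all tested genes. In cKO macrophages 5 of the 10 genes rose and 1 fell, where 37.0% of all tested genes were called, 19.6% higher and 17.5% lower. The median of the 10 genes there was 0.66, against -0.02 over all tested genes. The 6 genes called in cKO moved the same way as in WT. The authors' deposited table called 5 of the 10 genes higher and 1 lower in each genotype, where 28.2% of the tested genes were called in WT and 27.4% in cKO.

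**Figure D1:**
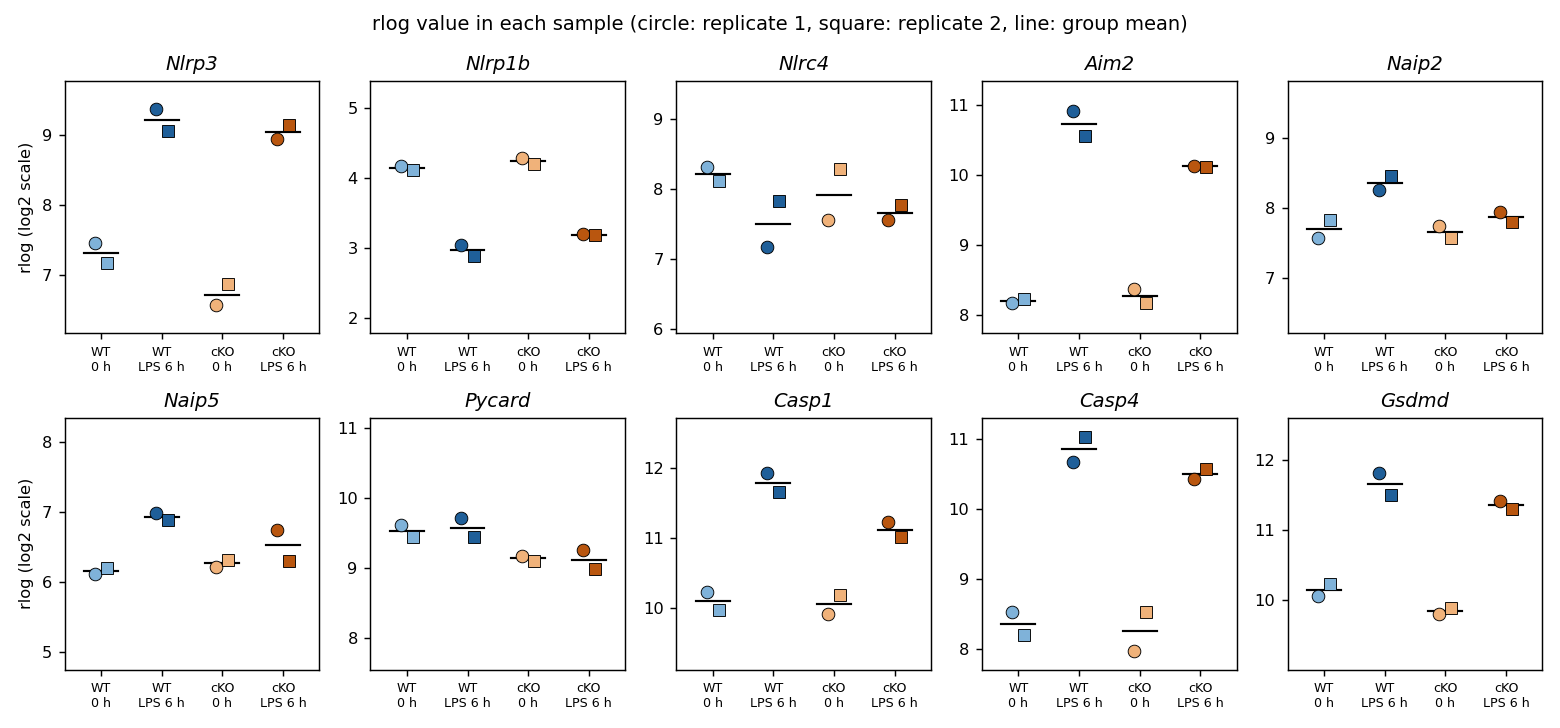
The rlog value (log2 scale, vertical axis) of each gene in every sample, by group. Circles are replicate 1, squares replicate 2 and black lines group means, and every panel spans the same number of log2 units. Nlrp3, Aim2, Casp1, Casp4 and Gsdmd sit higher after LPS in both genotypes, Nlrp1b sits lower, and the 4 cKO samples of Pycard lie below its 4 WT samples.

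Among the sensors, Nlrp3 had rlog values of 7.45 and 7.16 before and 9.37 and 9.06 after LPS in the WT samples, and 6.56 and 6.87 before and 8.93 and 9.14 after it in the cKO samples. All 4 LPS samples were above all 4 samples at 0 h, and the genotypes overlapped after LPS but not at 0 h. Nlrp3 rose by 1.91 (SE 0.18, limma adjusted p = 8.75e-05) in WT and by 2.32 (adjusted p = 5.65e-05) in cKO. Aim2, the DNA sensor, had values of 8.17 and 8.22 before and 10.91 and 10.55 after LPS in the WT samples, and 8.36 and 8.17 before and 10.13 and 10.12 after it in the cKO samples. Its genotypes overlapped at 0 h, and after LPS both cKO samples lay below both WT samples. Aim2 rose by 2.53 (SE 0.15, adjusted p = 1.27e-05) in WT and by 1.85 (adjusted p = 5.65e-05) in cKO.

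Nlrp1b was the lowest of the sensors on the rlog scale, which is not adjusted for transcript length, and the one that fell. Its mean over the 8 samples was 3.64, near the minimum of 3 for testing, and its WT mean after LPS was 2.97. With a minimum of 5 it was not tested. Its values were 4.18 and 4.12 before and 3.05 and 2.89 after LPS in the WT samples, and 4.29 and 4.21 before and 3.20 and 3.20 after it in the cKO samples. The fall was 1.18 (SE 0.17, adjusted p = 0.000899) in WT, and the difference in cKO was -1.05 (adjusted p = 0.00205). The authors' deposited table gave larger log2 fold changes for Nlrp1b, -3.50 in WT (adjusted p = 0.0214) and -2.44 in cKO (adjusted p = 0.0498). The rlog scale pulls low genes toward their mean, and its part in this gap was not tested.

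Nlrc4 had the largest standard error of the 10 genes in this fit. It had 8.32 and 8.12 before and 7.16 and 7.82 after LPS in the WT samples, and 7.55 and 8.28 before and 7.56 and 7.76 after it in the cKO samples. Ordered by mean, each of its groups overlapped the next. Its LPS difference in WT was -0.72 (SE 0.28, interval -1.36 to -0.09), which did not pass the test (adjusted p = 0.0651) but did without the second WT sample after LPS (-1.05, adjusted p = 0.0249), and was -0.40 (adjusted p = 0.324) without the first. It also passed when the first or the second cKO sample at 0 h was left out (adjusted p = 0.0340 and 0.0343). In cKO the difference was -0.25 (adjusted p = 0.511), and it turned to 0.11 (adjusted p = 0.800) without the second cKO sample at 0 h and to -0.62 (adjusted p = 0.138) without the first.

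The NAIP genes, whose proteins bind bacterial ligands for NLRC4, rose in WT. Naip2 had 7.57 and 7.82 before and 8.25 and 8.45 after LPS in the WT samples, and 7.74 and 7.56 before and 7.94 and 7.80 after it in the cKO samples. Naip5 had 6.10 and 6.20, then 6.98 and 6.88 in WT, and 6.20 and 6.32, then 6.74 and 6.30 in cKO. The WT samples after LPS were the highest of the 8 for both genes, while the second cKO sample of Naip5 after LPS lay within the range of cKO at 0 h. Naip2 rose by 0.65 (SE 0.15, adjusted p = 0.00909) and Naip5 by 0.78 (SE 0.18, adjusted p = 0.00971) in WT. Both calls ended without the first WT sample at 0 h, with 0.53 (adjusted p = 0.0635) for Naip2 and 0.73 (adjusted p = 0.0530) for Naip5. Neither gene passed in the authors' deposited table, with log2 fold changes of 0.71 (adjusted p = 0.0772) and 0.92 (adjusted p = 0.0673). In cKO the differences were 0.21 (adjusted p = 0.312) and 0.26 (adjusted p = 0.301).

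Pycard, the adaptor, did not pass the LPS test in either genotype. Its values were 9.62 and 9.45 before and 9.72 and 9.44 after LPS in the WT samples, and 9.17 and 9.11 before and 9.26 and 8.98 after it in the cKO samples. Within each genotype the 0 h and LPS samples overlapped, and every cKO sample was below every WT sample. The LPS difference was 0.04 (SE 0.15, interval -0.30 to 0.39) in WT and -0.02 (interval -0.36 to 0.33) in cKO.

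Both caspase genes rose in both genotypes. Casp1 had 10.23 and 9.96 before and 11.92 and 11.64 after LPS in the WT samples, and 9.91 and 10.19 before and 11.22 and 11.01 after it in the cKO samples. Its genotypes overlapped at 0 h, and after LPS both cKO samples lay below both WT samples. Casp1 rose by 1.69 (SE 0.16, adjusted p = 0.000102) in WT and by 1.07 (adjusted p = 0.00143) in cKO. Casp4 had 8.53 and 8.21 before and 10.68 and 11.04 after LPS in the WT samples, and 7.98 and 8.54 before and 10.44 and 10.58 after it in the cKO samples. The order of its groups was the same as for Casp1, and the groups at 0 h overlapped. Casp4 rose by 2.49 (SE 0.21, adjusted p = 5.44e-05) in WT and by 2.25 (adjusted p = 0.000122) in cKO. Setting all samples to one common distribution of values (quantile normalization) lowered the WT rise of Casp1 to 1.12 and kept the call.

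Gsdmd, whose protein forms the pore, had 10.06 and 10.24 before and 11.81 and 11.51 after LPS in the WT samples, and 9.80 and 9.89 before and 11.41 and 11.30 after it in the cKO samples. None of its 4 groups overlapped, and cKO was the lower genotype at both times. Such a gap downward was seen in 2530 of the 11543 tested genes at 0 h and in 3427 after LPS. The interval of its genotype difference held 0 at both times (-0.62 to 0.02 in each). Gsdmd rose by 1.51 (SE 0.14) in WT (adjusted p = 8.04e-05) and by 1.51 in cKO (adjusted p = 0.000115). Under quantile normalization the WT rise was 0.95, and the call held.

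**Figure D2:**
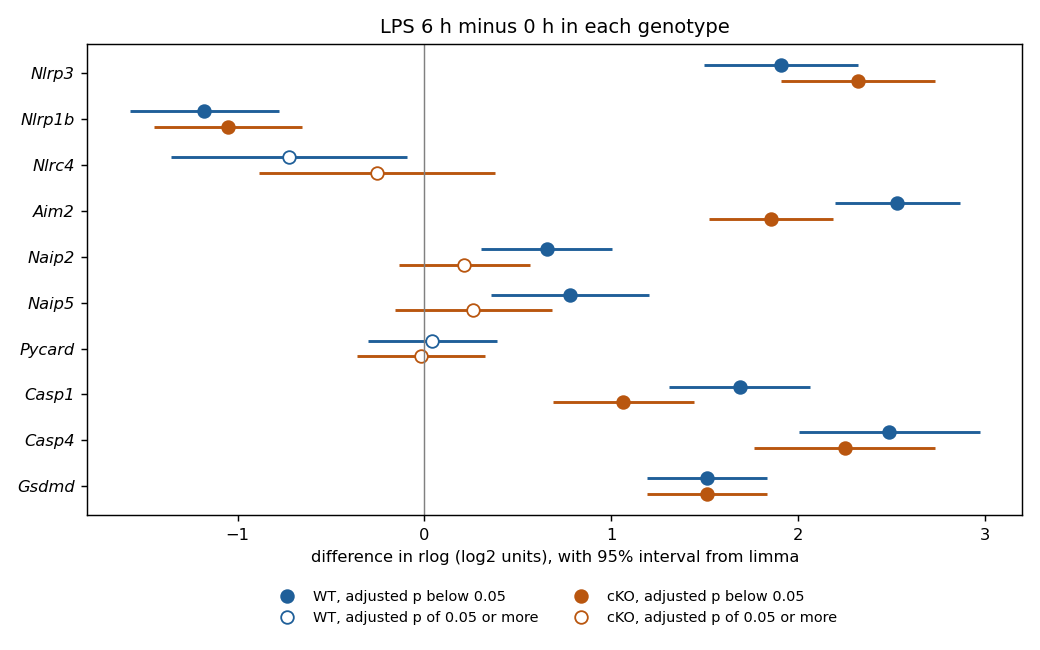
The difference in rlog between 6 h of LPS and 0 h (log2 units, horizontal axis) for each gene in WT (blue) and cKO (orange), with 95% intervals from limma as bars. Filled points passed an adjusted p of 0.05 and open points did not. Aim2 and Casp1 have smaller points in cKO (1.85 and 1.07) than in WT (2.53 and 1.69), and Gsdmd has the same value in both.

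The next comparison asked how the genotypes differed at each time. Before LPS the 10 genes had differences, cKO minus WT, between -0.59 for Nlrp3 and 0.11 for Naip5, with a median of -0.08 against -0.01 over all tested genes. In limma 0 of the 10 passed the test, where 0.251% of all tested genes did, and 0 passed in the authors' deposited table, where 1.52% of the tested genes did. At an unadjusted p below 0.05 there were 2, Nlrp3 and Pycard, against 10.9% of all tested genes. The cKO samples lay below the WT samples without overlap for 3 of the 10 genes and above them for 2. Of all 11543 tested genes, 2530 had such a gap downward and 2228 upward. Nlrp3 had a difference of -0.59 (SE 0.18, adjusted p = 0.284) and Pycard one of -0.40 (SE 0.15, interval -0.74 to -0.05, adjusted p = 0.397). The difference of Gsdmd was -0.30 (interval -0.62 to 0.02), and the intervals of Aim2 (-0.26 to 0.40) and Casp1 (-0.42 to 0.33) lay on both sides of 0.

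After LPS the cKO samples lay below the WT samples, without overlap, for 7 of the 10 genes, Aim2, Naip2, Naip5, Pycard, Casp1, Casp4 and Gsdmd, and above them for Nlrp1b. Among all tested genes 29.7% had such a gap downward and 23.3% upward. The median difference of the 10 genes was -0.38, against -0.03 over all tested genes. In limma 0 of the 10 genes passed the test, where 3.97% of all tested genes did, and 4 had an unadjusted p below 0.05, against 21.5% of all tested genes. These 4 were Casp1 at -0.67 (SE 0.16, interval -1.05 to -0.29, adjusted p = 0.0623), Aim2 at -0.61 (SE 0.15, interval -0.94 to -0.28, adjusted p = 0.0580), Naip2 at -0.48 (adjusted p = 0.112) and Pycard at -0.46 (adjusted p = 0.122). The authors' deposited table called 1 of the 10 lower, Casp1 (log2 fold change -0.68, adjusted p = 0.0390), where 3.02% of the tested genes were called lower, and gave Aim2 -0.62 (adjusted p = 0.0913). The Aim2 difference was -0.79 without the second WT sample after LPS (10.55, against 10.91 in the first), and smaller in size without the first. Over all alternatives it ranged from -0.79 to -0.40. Under quantile normalization the differences of Casp1 and Aim2 were -0.37 and -0.40, and that of Gsdmd moved from -0.30 to -0.01. The markers with other values in cKO after LPS, 2 of the 7 macrophage genes, were lower as well, and their part in these differences was not tested.

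**Figure D3:**
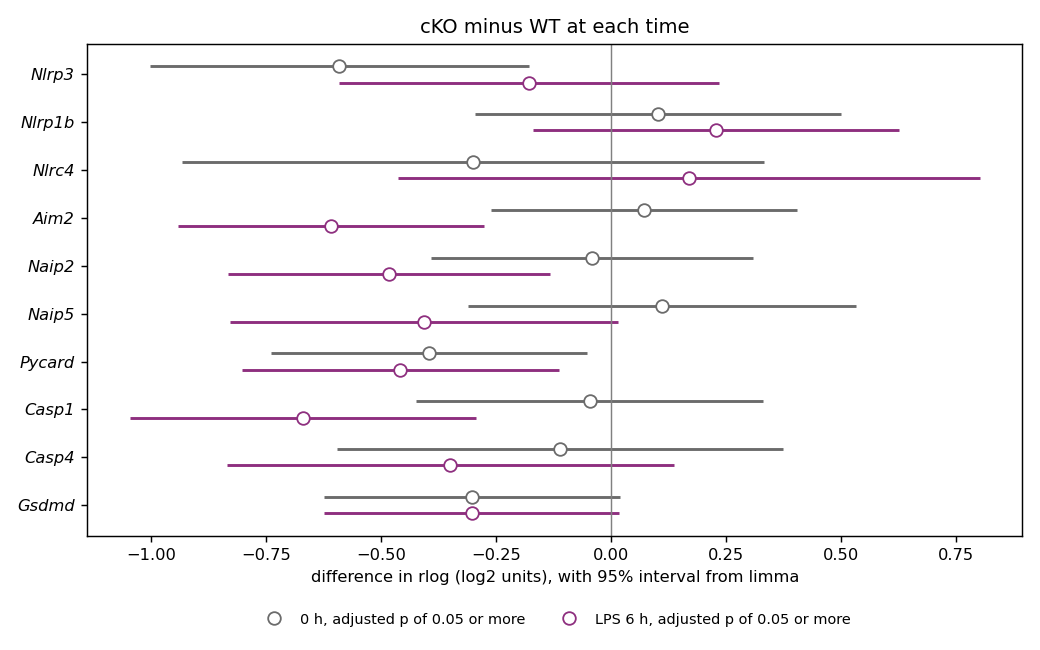
The difference in rlog between cKO and WT (log2 units, horizontal axis) for each gene at 0 h (grey) and after 6 h of LPS (purple), with 95% intervals from limma as bars. All points are open because no adjusted p was below 0.05. After LPS 8 of the 10 points lie below 0, led by Casp1 at -0.67 and Aim2 at -0.61. Of all 11543 tested genes, 6228 had a negative difference there.

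Whether the LPS response itself differed between genotypes was tested with the interaction term, the LPS difference in cKO minus that in WT. In limma 0 of the 10 genes passed, as did 0 (0.0%) of all tested genes, and 2 of the 10 had an unadjusted p below 0.05, against 6.51% of all tested genes. These were Aim2, with an interaction of -0.68 (SE 0.21, interval -1.15 to -0.21, adjusted p = 0.688), and Casp1, with -0.62 (SE 0.23, interval -1.16 to -0.09, adjusted p = 0.708). Naip5 and Naip2, called in WT alone, had interactions of -0.52 (interval -1.11 to 0.08) and -0.44 (interval -0.94 to 0.05), so a difference in their response between genotypes was not shown. The interaction of Gsdmd was close to 0, with an interval of -0.45 to 0.45. Nlrp3 had 0.41 (SE 0.26), on the other side of 0 from Aim2 and Casp1.

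Because Pycard was lower in cKO at both times, the mean genotype difference over the 2 times was added after the data were seen, so its value for Pycard describes that pattern and is no independent test of it. Pycard was the 1 gene of the 10 whose 4 cKO samples all lay below its 4 WT samples, a pattern that 2.64% of all tested genes had. Its mean difference was -0.43 (SE 0.11, interval -0.67 to -0.18), with a limma adjusted p of 0.04997, where 7.02% of all tested genes were below the threshold and 4.14% were lower. It was above the threshold when any 1 of 7 of the 8 libraries was left out, with a difference of -0.36 to -0.50, and below it without the second WT sample after LPS. Over the mean of both times 3 of the 7 macrophage markers were lower in cKO as well. Of the 2 tested neutrophil markers 1, S100a8, was higher, with 6.50 to 7.60 in the 4 WT samples and 7.76 to 8.35 in the 4 cKO samples. The mean over all 8 listed neutrophil markers overlapped between the genotypes at each time. The part of these markers in the difference of Pycard was not tested. The other 9 genes did not pass, with mean differences from -0.38 for Nlrp3 (adjusted p = 0.116) to 0.16 for Nlrp1b (adjusted p = 0.462).

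For 3 of the genes, the named genes with the most similar profile over the 8 samples were found by Pearson's r on rlog, as a description without a test. For Nlrp3 they were Ehd1 (r = 0.998), Ehd4 (0.997) and Sod2 (0.997), where Ehd1 and Ehd4 encode endocytic recycling proteins and Sod2 the mitochondrial superoxide dismutase. Casp4 was most like Wdr43 (0.999), Parp14 (0.998) and Rilpl1 (0.998). The falling profile of Nlrp1b was most like that of Fam50a (0.998), Chek2 (0.997) and E2f2 (0.995), the latter 2 encoding a checkpoint kinase and a cell cycle transcription factor. The 8 samples fall into LPS and 0 h groups, a split that all of these correlations share.

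The rest of the pathway was taken from 4 lists with 52 genes, of which 38 were tested. Among other sensors, 3 of 5 tested genes rose in WT and the same number in cKO, and none fell, where 22.5% of all tested genes rose and 19.7% fell in WT and 19.6% and 17.5% in cKO. Mefv, the pyrin gene, rose by 2.46 (SE 0.14) in WT and 2.78 in cKO, the DNA sensor gene Ifi204 by 2.30 (SE 0.20) and 1.90, and Zbp1, a sensor of Z-form nucleic acid, by 1.76 (SE 0.29) and 1.69. In the list of activation and priming genes, 8 of 14 rose and 1 fell in WT, with a median difference of 0.90, and 7 rose and 1 fell in cKO. The risers were led by guanylate-binding proteins, which coat cytosolic bacteria and help expose their LPS to caspase-11. Gbp5 rose by 5.56 (SE 0.19), Gbp3 by 3.88 (SE 0.22) and Gbp2 by 3.55 (SE 0.32) in WT, and by 5.65, 3.61 and 3.71 in cKO. P2rx7, the ATP-gated channel upstream of NLRP3, fell, with differences of -0.69 (SE 0.13) in WT and -0.98 in cKO.

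Downstream of the caspases, 8 of 12 tested genes rose and 1 fell in each genotype, where 42.2% of all tested genes were called in WT and 37.0% in cKO. The median difference was 1.89 in WT and 1.47 in cKO. Il1a rose by 4.39 (SE 0.26) in WT and 3.11 in cKO. Il18 and Il1b, the genes of the cytokines that caspase-1 cuts, rose by 3.30 and 3.14 (SE 0.26 each) in WT and by 2.90 and 2.98 in cKO. Hmgb1, a nuclear protein that dying cells release, fell, with differences of -0.67 (SE 0.12) and -1.03. Among inhibitors, 4 of 7 tested genes rose and 1 fell in each genotype. Il1rn, which encodes the IL-1 receptor antagonist, rose by 4.36 (SE 0.18) in WT and 4.15 in cKO, and Il18bp, the IL-18 binding protein, by 2.85 (SE 0.24) and 2.55. Serpinb9, a protease inhibitor gene, rose by 2.84 in WT and 2.39 in cKO, and Tnfaip3, the gene of the NF-kappaB inhibitor A20, by 2.19 and 2.71. The 1 inhibitor that fell was Fbxl2, with -0.53 (SE 0.17, limma adjusted p = 0.0390) in WT and -0.75 (adjusted p = 0.0106) in cKO. The WT call of Fbxl2 ended without any 1 of the 4 WT samples (adjusted p = 0.0815 to 0.160), and its cKO call without the first cKO sample at 0 h (0.0693) or the second after LPS (0.0826). The authors' deposited table called Fbxl2 in neither genotype (adjusted p = 0.234 in WT and 0.0597 in cKO).

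**Figure D4:**
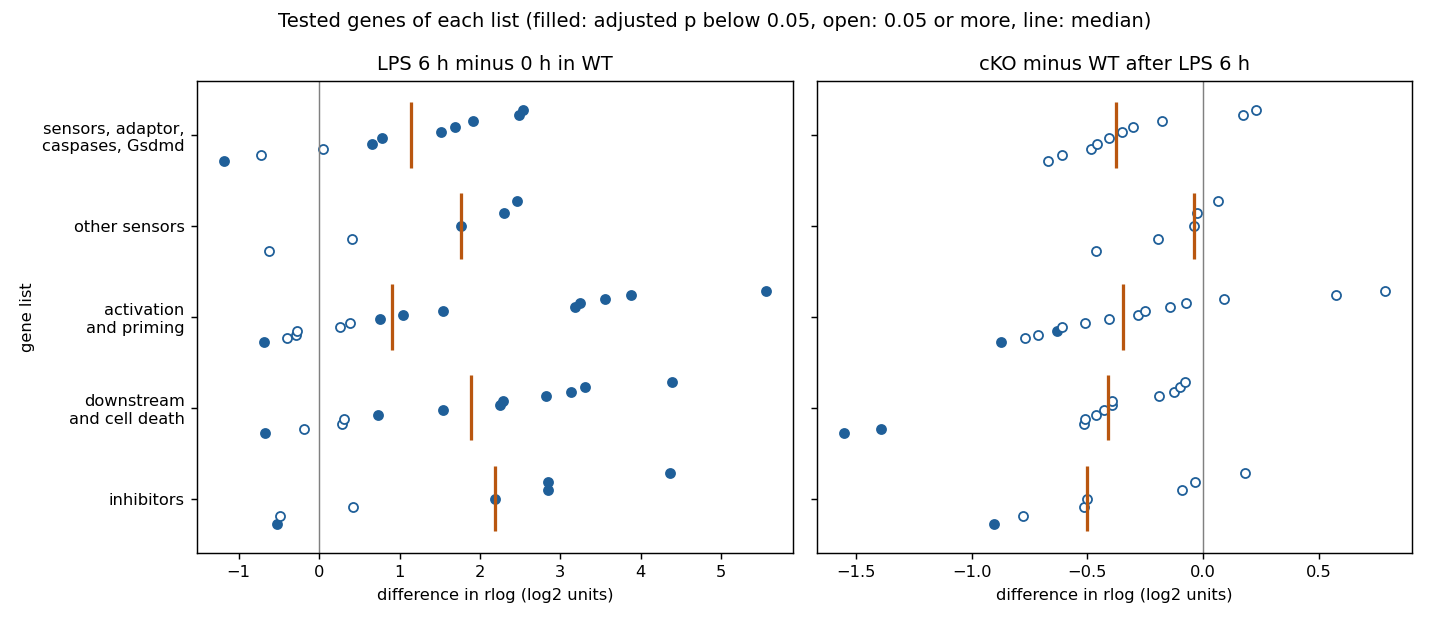
Each tested gene of the 10 described genes and the 4 pathway lists, as the difference in rlog (log2 units, horizontal axis) with LPS in WT (left) and between cKO and WT after LPS (right). Filled points passed an adjusted p of 0.05 in limma, open points did not, and vertical lines are list medians. On the right the medians lie between -0.04 for other sensors and -0.50 for inhibitors, and 5 genes passed, all lower in cKO.

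After LPS, cKO cells had lower levels of 5 of these 38 genes, and no gene of the lists was called higher in limma. They were 0 of 5 other sensors, 2 of 14 activation genes, 2 of 12 downstream genes and 1 of 7 inhibitors, against 3.97% of all tested genes called and 2.46% lower. Il1a was lower by a difference of -1.55 (SE 0.26, limma adjusted p = 0.0219) and Il1b by one of -1.39 (SE 0.26, adjusted p = 0.0294). Il1rn, their antagonist, had -0.90 (SE 0.18, adjusted p = 0.0339), Gbp5 had -0.87 (SE 0.19, adjusted p = 0.0426) and P2rx7 had -0.63 (SE 0.13, adjusted p = 0.0366). The authors' deposited table did not call P2rx7 (adjusted p = 0.297), called Gbp2, Gbp3 and Bcl2l1 lower as well (log2 fold changes -0.71, -0.78 and -0.79), and called Nek7, whose protein binds NLRP3, higher (0.93, adjusted p = 0.0354). In limma Nek7 had 0.79 (SE 0.32, adjusted p = 0.208). All 12 downstream genes had a negative difference, as did 6228 of all 11543 tested genes. Their median was -0.41, against -0.03 over all tested genes. Each of the 5 calls ended without either cKO sample after LPS (adjusted p = 0.136 to 0.184 without the first and 0.156 to 0.259 without the second), when 0 of all tested genes were called, and without the first WT sample after LPS (0.0902 to 0.179). The calls of Gbp5, P2rx7 and Il1a also ended without the second WT sample after LPS (adjusted p = 0.0589, 0.0841 and 0.0607), that of Gbp5 without the first or the second WT sample at 0 h (0.0533 and 0.0532), and that of P2rx7 without the first of them (0.0506). All 5 ended under quantile normalization and with no minimum on expression. At 0 h none of the 38 genes passed in limma, where 0.251% of all tested genes did, and 12 had an unadjusted p below 0.05, against 10.9% of all tested genes. Il1b had a difference of -1.23 (SE 0.26, limma adjusted p = 0.142) at 0 h, and the authors' deposited table called it lower there (log2 fold change -1.43, adjusted p = 0.000914). The limma difference of Il1b was -1.65 without the second WT sample at 0 h, and smaller in size without the first.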

How the data were processed

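Poly(A) RNA-seq libraries from 8 samples were copied with random primers and amplified for 15 PCR cycles, per the labels' protocols. Named in the submitters' processing notes, without roles or settings, are HISAT2 2.1.0, CASAVA, DESeq2, featureCounts and the build GRCm38. The authors deposited 1 table of rlog values on a log2 scale, from -2.31 to 19.31, with 26727 of 55226 genes at 0 in every sample. Per the file headers, it also holds, for 4 comparisons, the authors' log2 fold changes with raw and adjusted p-values. No counts were used, so depth is unknown. The 2 samples in each group limit the precision of every difference.

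The 11543 genes whose mean rlog reached 3 were fitted with limma 3.58.1 in R 4.3.3: 4 group means on 8 samples, a variance trend, 4 residual and 4.4 prior degrees of freedom, Benjamini-Hochberg adjustment over all tested genes and a threshold of 0.05. The fit was tested on simulated data. Every chosen gene is described, and from each pathway list up to 3 rises and 3 falls that passed are named. The genes, lists and motifs were chosen with earlier results of these data known. Alternatives were other filters, normalizations, variance models, replicate blocks, left-out samples and the authors' deposited table.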

Additional observations from a re-analysis of the deposited data

How the results depend on the processing

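Over the alternatives, 981 results for the 10 genes kept their direction or failed the test as before, 14 lost a call and 9 gained one; no called difference changed sign. The number of the 10 genes called ranged, when 1 library was left out, from 6 to 9 for LPS in WT, 6 to 6 for LPS in cKO, 0 to 0 for cKO against WT at 0 h, 0 to 1 after LPS, 0 to 0 for the interaction and 0 to 1 for the mean of both times. After LPS it was 1 in the authors' deposited table (Casp1). The 1 gene called for the mean of both times, Pycard, was 0 of 10 under quantile normalization, with no filter on low values and with no variance trend (adjusted p = 0.0774, 0.149 and 0.0792). The cause was not tested.

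Over all tested genes, calls for cKO against WT at 0 h were 29, but 114 with no filter, 9 with no variance trend, 0 with only the 2 groups compared and 176 in the authors' deposited table, and 2 to 128 when 1 library was left out. After LPS they were 458, but 235 under quantile normalization, 208 with no filter, 301 with no variance trend, and 0 to 582 when 1 library was left out. For LPS in cKO they were 4275 and 2684 to 4468, for LPS in WT 4871 and 3661 to 4770. Quantile normalization turned the balance of the LPS calls, from 2598 higher and 2273 lower to 2220 and 2771 in WT and from 2260 and 2015 to 2012 and 2501 in cKO. The interaction gave 0, but 10 with no filter. The mean of both times gave 810, but 359 with no filter and 109 to 775 when 1 library was left out.

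The replicate numbers 1 and 2 are shared by all groups, and no source says that they mark a mouse or batch. Deviations of same-numbered samples correlated at 0.22 between the 2 WT groups and 0.31 between the 2 cKO groups. Across genotypes they correlated at -0.04 to 0.20. With the replicate number as a block, 9 of the 10 genes were called for LPS in WT (Nlrc4 joined, adjusted p = 0.0317), and 2 were called lower in cKO after LPS, Aim2 (adjusted p = 0.0393) and Casp1 (adjusted p = 0.0466). The replicate block gave 72 calls over all genes at 0 h and 804 after LPS. A replicate block within each genotype also called 9 of the 10 genes for LPS in WT (Nlrc4 at a limma adjusted p of 0.0316) and 6 for LPS in cKO. With 2 samples a group and unknown depth, the precision of small differences is limited.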

Other observations

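In the list of downstream and cell death genes, Mlkl, whose protein carries out necroptosis, rose by 2.82 (SE 0.19, limma adjusted p = 2.12e-05) in WT and by 2.37 (adjusted p = 6.14e-05) in cKO. Casp8, which encodes an initiator caspase of apoptosis, rose by 1.54 in WT and 1.09 in cKO. Ninj1, whose protein ruptures the membrane late in pyroptosis, rose by 0.73 (SE 0.18) in WT and 0.74 in cKO. The kinase genes Ripk1 and Ripk3 had WT differences of 0.28 (adjusted p = 0.249) and 0.31 (adjusted p = 0.263), and the other gasdermin gene tested, Gsdme, had -0.19 (adjusted p = 0.612). None of these 6 genes passed the test between genotypes after LPS.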
